A study of Mus musculus with 8 samples.

Results

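Rab GTPases are small GTP-binding proteins that direct membrane traffic between the compartments of a cell. A Rab protein in its GTP-bound form sits on a membrane through C-terminal prenyl groups and recruits effectors, and in its GDP-bound form it is extracted into the cytosol by GDP dissociation inhibitor. Exchange factors load GTP, and GTPase-activating proteins, most of them with a TBC domain, end the active state. Different Rab proteins mark different compartments, and in blood cells members of the family are known for granule release, phagosome maturation and the recycling of surface receptors. Genes were taken whose symbol in the platform annotation is Rab followed by a number and an optional letter, except Rab27b, and this gave 58 of the 18194 genes with a probe set of their own. They are read by 128 probe sets, and the brightest one by its mean over the 8 arrays stands for each gene.

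RNA was hybridised to 8 arrays in 4 groups of 2: fetal liver of Col18a1-/- (KO) embryos, fetal liver of Col18a1+/+ (WT) embryos, bone marrow of Col18a1-/- males and bone marrow of Col18a1+/+ males. The Col18a1 product is collagen XVIII, which sits in basement membranes and releases endostatin from its C-terminus. The strain label is C57B6/J in every group, the embryos were taken at embryonic day 14.5 with their sex undetermined, and the bone marrow came from femur and tibia at 3 months of age. Each array holds RNA pooled from 2 littermates, all cells of the suspension being taken with no sort, so p-values measure the spread between pools. The labels do not say which part of Col18a1 is deleted.

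Levels are log2 of the deposited intensity. Median intensities were 40.8 to 42.6 and arrays of 1 group correlated at r = 0.993 to 0.997 across probe sets, which are not independent replicates. Col18a1 itself read 8.17 and 8.06 in KO fetal liver, 9.06 and 9.18 in WT fetal liver, 5.63 and 5.99 in KO bone marrow, and 7.84 and 7.85 in WT bone marrow, lower in KO in both tissues. Hepatoblast markers (6 of 6 higher in fetal liver, in both genotypes) and neutrophil markers (7 of 7 measured lower) fitted the tissue labels. The fetal liver pools differed in sex-linked genes: Xist, transcribed from an inactive X chromosome, read 4.97 and 4.77 in KO against 11.04 and 11.22 in WT, and the Y-linked Eif2s3y read 9.38 and 9.42 in KO against 3.29 and 3.00 in WT. All bone marrow arrays, from males, read 4.61 to 5.03 for Xist. Genotype and sex therefore cannot be told apart in fetal liver. Tissue and sex likewise cannot be told apart between WT fetal liver and WT bone marrow (Xist 6.31 higher, Eif2s3y -6.75), while Xist differed by 0.05 between KO fetal liver and KO bone marrow. In both genotypes tissue and age cannot be told apart, all fetal livers being embryonic and all bone marrow adult.

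Of the 58 Rab genes, 49 reached a log2 level of 5 on at least 2 arrays and were tested with 13136 genes in all. The others were Rab20, Rab33a, Rab39, Rab39b, Rab3c, Rab40b, Rab42, Rab6b and Rab9b. Of these, 7 stayed under 5 on every array, Rab6b passed it on 1 WT bone marrow array (5.43) and Rab39b on 1 KO fetal liver array (5.21). Rab17 passed through its fetal liver arrays alone.

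The first comparison asked how the family differs between fetal liver and adult bone marrow, once within KO and once within WT arrays. Rab34 and Rab4a were 7.06- and 4.96-fold higher in WT fetal liver than in WT bone marrow, Rab17 was at least 3.70-fold higher, its bone marrow arrays all lying under the filter level, and Rab44, Rab31, Rab3d and Rab27a were 3.44- to 7.09-fold lower. The same genes stood apart in the same direction between KO fetal liver and KO bone marrow. More members were lower than higher. In KO, 26 of 49 differed at an adjusted p under 0.05 (limma), 7 higher and 19 lower, against 63.8% of all genes tested, 36.6% higher and 27.1% lower. In WT, 30 of 49 differed, 8 higher and 22 lower, against 65.9% of all genes, 39.2% higher and 26.8% lower. The median difference of the members was -0.14 in KO, where that of all genes was 0.11, and -0.13 in WT, where that of all genes was 0.14.

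The cell content of the 2 tissues differed along with the Rab genes, and in such bulk samples fewer cells of a type and less RNA per cell cannot be told apart. The summed intensity of the 7 neutrophil markers measured was 8985 to 13250 in KO fetal liver and 10330 to 11740 in WT fetal liver, against 124200 to 126200 in KO bone marrow and 121800 to 122100 in WT bone marrow. The 5 B lineage markers summed to 198.9 to 243.9 and 209.9 to 272.1 in KO and WT fetal liver, against 7695 to 7922 and 8730 to 8794 in KO and WT bone marrow. The 6 hepatoblast markers ran the other way, at 67380 to 68880 and 65960 to 67210 in KO and WT fetal liver, against 195.8 to 214.1 and 161.9 to 201.7 in KO and WT bone marrow. The 5 endothelial markers summed to 1777 to 1879 and 1668 to 1707 in fetal liver, against 281.4 to 291.5 and 304.5 to 344 in bone marrow, in the same order of genotypes. The 5 erythroid markers measured summed to 27160 to 29740 and 24550 to 26280 in fetal liver, against 32230 to 32740 and 31170 to 32330 in bone marrow, and the 6 macrophage markers to 2503 to 2857 and 2398 to 2681, against 1712 to 1830 and 1417 to 1522. These sums hide members that went the other way: C1qa, a macrophage marker, fell by 1.17 in KO and fell by 1.02 in WT, the erythroid Epor rose by 0.43 in KO and by 0.42 in WT, and the endothelial Pecam1 was at -0.32 in KO and fell by 0.82 in WT. The 8 megakaryocyte markers summed to 7267 to 7283 in KO fetal liver against 7024 to 7406 in KO bone marrow, and to 7206 to 7368 in WT fetal liver against 14130 to 16900 in WT bone marrow. The ranges overlapped in KO and were far apart in WT. The KO sums hide opposite moves: Ppbp fell by 0.72 in fetal liver against bone marrow, while Pf4, Treml1 and Itga2b rose by 0.70, 0.62 and 0.53. The other 4 megakaryocyte markers were not called in KO. Under the filter level on all 4 bone marrow arrays were 2 of the hepatoblast markers, and on all 4 fetal liver arrays 1 of the B lineage and none of the neutrophil markers. Their part in the Rab differences was not tested.

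Among Rab genes of secretory granules and exocytosis, 11 of 12 were tested. In KO 1 rose and 5 fell in fetal liver against bone marrow, and in WT 1 rose and 6 fell. The counts by role, here and below, stand beside 63.8% of all genes called in KO and 65.9% in WT. The roles were not tested as sets. Rab44, a large member with EF-hand motifs that is known from mast cell granules, read 6.25 and 6.28 in KO fetal liver, 5.59 and 6.19 in WT fetal liver, 9.001 and 8.77 in KO bone marrow, and 8.73 and 8.702 in WT bone marrow. Every fetal liver array lay more than 2 log2 units under every bone marrow array. The difference was -2.62 ± 0.18 in KO (log2, SE; adjusted p = 2.42e-06, limma) and -2.83 ± 0.18 in WT (adjusted p = 1.44e-06), a 7.09-fold lower intensity in WT fetal liver. Rab44 has 1 probe set on the array.

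Rab3d, found on secretory granules of exocrine and mast cells, read 7.36 and 7.398 in KO fetal liver, 7.36 and 7.31 in WT fetal liver, 9.21 and 9.35 in KO bone marrow, and 9.05 and 9.19 in WT bone marrow. The tissues did not overlap, and Rab3d fell by 1.90 ± 0.10 in KO (adjusted p = 3.83e-07, limma) and fell by 1.79 ± 0.10 in WT (adjusted p = 5.58e-07). Of its 3 dimmer probe sets, 2 gave -1.57 and -1.50 in KO and -1.54 and -1.47 in WT, and the dimmest, near the filter level, gave -0.23 in KO and -0.05 in WT. Rab27a, which docks lytic and azurophil granules and is mutated in the ashen mouse, read 6.34 and 6.08 in KO fetal liver, 5.98 and 6.39 in WT fetal liver, 8.48 and 7.87 in KO bone marrow, and 8.03 and 7.8995 in WT bone marrow. Its pools spread more than those of Rab3d, but the tissues stayed apart, with differences of -1.96 ± 0.21 in KO (adjusted p = 4.47e-05, limma) and -1.78 ± 0.21 in WT (adjusted p = 7.67e-05).

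The exocytic member that rose was Rab13, which works at tight junctions of epithelial and endothelial cells. It read 6.76 and 6.76 in KO fetal liver, 6.92 and 6.75 in WT fetal liver, 5.83 and 5.78 in KO bone marrow, and 5.91 and 6.05 in WT bone marrow. The rise was 0.96 ± 0.10 in KO (adjusted p = 3.9e-05, limma) and 0.86 ± 0.10 in WT (adjusted p = 7.36e-05). Rab8b, a member of exocytosis and ciliary traffic, fell by 0.50 ± 0.09 in KO and fell by 0.37 ± 0.09 in WT, while its paralog Rab8a did not pass the test, at -0.14 in KO (95% interval -0.37 to 0.09) and -0.07 in WT (-0.30 to 0.16). Rab3a, the synaptic vesicle member, had differences of 0.16 in KO (-0.08 to 0.39) and -0.16 in WT (-0.40 to 0.08). Within the Rab3 group, only Rab3d of the 3 tested passed the test in either genotype.

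**Figure D1:**
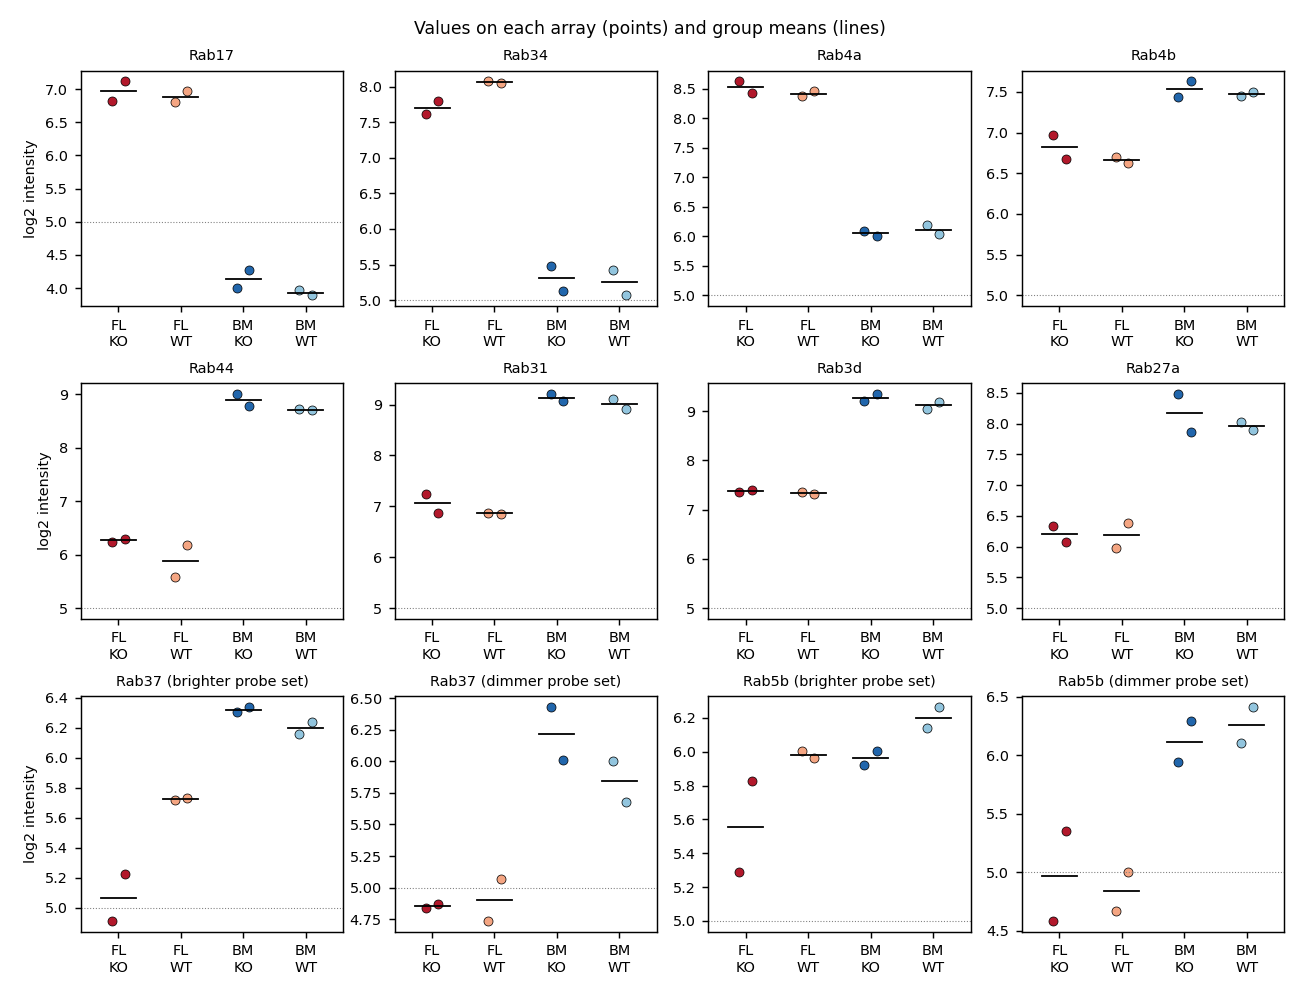
Log2 intensity (y axis) of Rab genes on each of the 8 arrays, by group on the x axis (FL, fetal liver; BM, bone marrow); points are arrays, lines are means of 2 arrays and the dotted line is the filter level of 5. Rab17, Rab34 and Rab4a are higher and Rab4b, Rab44, Rab31, Rab3d and Rab27a are lower on every fetal liver array than on every bone marrow array, and on the brighter Rab37 probe set the KO fetal liver arrays, at 4.91 and 5.22, lie under the WT fetal liver arrays.

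Rab genes of early and recycling endosomes went in both directions. Of 16 members 15 were tested; 3 rose and 4 fell in KO, and 4 rose and 4 fell in WT. Rab17, which directs recycling and transcytosis in polarised epithelial cells, read 6.82 and 7.12 in KO fetal liver, 6.80 and 6.97 in WT fetal liver, 4.0002 and 4.28 in KO bone marrow, and 3.97 and 3.89 in WT bone marrow. It was above 5 on all fetal liver arrays and under 5 on all bone marrow arrays, so it could pass the filter only by being high in fetal liver, and its bone marrow level has only an upper bound. Set against the filter level of 5, it was at least 3.91-fold higher in KO fetal liver and at least 3.70-fold higher in WT fetal liver. It is counted among the called members, with no weight put on its p.

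Rab4a and Rab4b, close paralogs that return receptors from early endosomes to the plasma membrane, moved in opposite directions. Rab4a read 8.63 and 8.43 in KO fetal liver, 8.37 and 8.47 in WT fetal liver, 6.08 and 6.01 in KO bone marrow, and 6.18 and 6.04 in WT bone marrow, and rose by 2.48 ± 0.10 in KO (adjusted p = 1.38e-07, limma) and by 2.31 ± 0.10 in WT (adjusted p = 2.07e-07). Its second probe set gave 1.93 in KO and 2.33 in WT. Rab4b read 6.97 and 6.68 in KO fetal liver, 6.69 and 6.63 in WT fetal liver, 7.44 and 7.63 in KO bone marrow, and 7.45 and 7.502 in WT bone marrow. It fell by 0.71 ± 0.12 in KO (adjusted p = 0.000773, limma) and fell by 0.82 ± 0.12 in WT (adjusted p = 0.000309), with no overlap of the tissues for either paralog.

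Rab31, also called Rab22b, which carries cargo between the trans-Golgi network and endosomes, read 7.25 and 6.87 in KO fetal liver, 6.88 and 6.85 in WT fetal liver, 9.20 and 9.07 in KO bone marrow, and 9.10 and 8.91 in WT bone marrow. It fell by 2.08 ± 0.14 in KO (adjusted p = 2.04e-06, limma) and fell by 2.14 ± 0.14 in WT (adjusted p = 1.57e-06), and its intensity was 4.42-fold lower in WT fetal liver. Its relative Rab22a read 8.28 and 8.198 in KO fetal liver, 8.43 and 8.32 in WT fetal liver, 8.02 and 7.97 in KO bone marrow, and 8.04 and 7.88 in WT bone marrow. Rab22a had 0.24 in KO, which missed the threshold (adjusted p = 0.0566, limma), and rose by 0.41 ± 0.10 in WT (adjusted p = 0.0049). It missed the threshold without WT bone marrow replicate 2 (adjusted p = 0.0501, limma), and it rests on the probe set: the other 3 probe sets of Rab22a gave -0.29, -0.31 and -0.43 in KO and -0.57, -0.66 and -0.40 in WT. Rab21, known for integrin traffic, fell by 0.63 ± 0.12 in KO and fell by 0.44 ± 0.12 in WT, and its second probe set gave -0.30 and -0.13. The Rab5 genes, which mark early endosomes, did not pass the test: Rab5a was at -0.15 in KO (95% interval -0.41 to 0.12) and 0.07 in WT (-0.20 to 0.33), and Rab5c at 0.08 in KO (-0.15 to 0.30) and 0.23 in WT (0.01 to 0.46; adjusted p = 0.0669, limma). Rab5b was at -0.40 in KO (-0.77 to -0.04, adjusted p = 0.0509, limma) and -0.22 in WT (-0.58 to 0.14). Its dimmer probe set gave -1.15 in KO and -1.42 in WT, with some fetal liver arrays under the filter level. Rab11a, the marker of recycling endosomes, was at 0.16 in both genotypes (-0.05 to 0.38 in KO). Its paralog Rab11b rose by 0.33 ± 0.10 in KO (adjusted p = 0.0211, limma) and was at 0.13 in WT (-0.11 to 0.36), but its 2 dimmer probe sets gave -0.72 and -0.69 in KO and -1.03 and -0.73 in WT.

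Late endosomal and autophagic members were split. Of 6 members 5 were tested; 1 rose and 2 fell in KO, and 1 rose and 3 fell in WT. Rab9, which returns mannose 6-phosphate receptors from late endosomes to the Golgi and lies on the X chromosome, read 10.08 and 10.46 in KO fetal liver, 10.63 and 10.38 in WT fetal liver, 9.51 and 9.55 in KO bone marrow, and 9.75 and 9.71 in WT bone marrow. It rose by 0.74 ± 0.14 in KO (adjusted p = 0.00141, limma), between groups that are alike in Xist, and by 0.78 ± 0.14 in WT (adjusted p = 0.00096). Rab24, which acts in the clearance of autophagosomes, read 8.09 and 8.29 in KO fetal liver, 8.18 and 8.36 in WT fetal liver, 9.44 and 9.38 in KO bone marrow, and 9.27 and 9.2973 in WT bone marrow. It fell by 1.22 ± 0.11 in KO and fell by 1.02 ± 0.11 in WT, and its second probe set gave -1.10 in KO and -0.78 in WT. Rab7, the regulator of fusion with lysosomes, was at -0.04 in KO (-0.25 to 0.18) and fell by 0.24 ± 0.09 in WT (adjusted p = 0.0451, limma), while its second probe set gave -0.40 in KO and -0.43 in WT.

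In the group of the endoplasmic reticulum and Golgi, 11 of 13 members were tested, of which 1 rose and 5 fell in KO and 1 rose and 6 fell in WT. The members that fell in both were Rab19, Rab43, Rab2a, Rab33b and Rab6a. Rab19 read 6.45 and 6.23 in KO fetal liver, 6.39 and 6.27 in WT fetal liver, 7.28 and 7.43 in KO bone marrow, and 7.43 and 7.51 in WT bone marrow, with no overlap of the tissues. It fell by 1.02 ± 0.11 in KO and fell by 1.14 ± 0.11 in WT. Rab43, which acts in traffic between endoplasmic reticulum and Golgi, read 9.14 and 9.27 in KO fetal liver, 8.91 and 9.17 in WT fetal liver, 10.27 and 10.02 in KO bone marrow, and 10.06 and 10.08 in WT bone marrow. The tissues were apart here too, and Rab43 fell by 0.94 ± 0.13 in KO and fell by 1.03 ± 0.13 in WT, and its other 2 probe sets gave -1.47 and -0.06 in KO and -1.67 and -0.37 in WT. Rab33b, a Golgi member that binds the autophagy protein Atg16l1, fell by 0.93 ± 0.09 in KO and fell by 0.77 ± 0.09 in WT. Rab6a, which directs transport back through the Golgi, fell by 0.67 ± 0.10 in KO and fell by 0.58 ± 0.10 in WT, and its other 2 probe sets gave -0.46 and 0.03 in KO and -0.62 and -0.24 in WT.

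Rab2a, of the early secretory pathway, read 10.02 and 9.91 in KO fetal liver, 9.705 and 9.75 in WT fetal liver, 10.67 and 10.66 in KO bone marrow, and 10.67 and 10.67 in WT bone marrow, and fell by 0.70 ± 0.09 in KO and fell by 0.94 ± 0.09 in WT. Its other probe sets at the filter level disagreed: 3 gave -0.18 to -0.42 in KO and -0.26 to -0.42 in WT, and the 2 dimmest gave 0.99 and 0.44 in KO and 0.88 and 0.21 in WT. The direction given for Rab2a is that of its brightest probe set. Rab1a, which starts transport from the endoplasmic reticulum, was at 0.10 in KO (-0.10 to 0.30) and 0.18 in WT (-0.02 to 0.38).

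Rab34, one of 3 members placed with cilia and known for ciliogenesis and lysosome positioning, read 7.62 and 7.795 in KO fetal liver, 8.08 and 8.06 in WT fetal liver, 5.48 and 5.13 in KO bone marrow, and 5.43 and 5.07 in WT bone marrow. Fetal liver stood above bone marrow on every array, by 2.40 ± 0.15 in KO (adjusted p = 1.7e-06, limma) and 2.82 ± 0.15 in WT (adjusted p = 6.02e-07). The second probe set of Rab34 lay under the filter level on all 4 bone marrow arrays and, set against that level, was at least 4.92-fold higher in KO fetal liver and at least 6.57-fold higher in WT fetal liver. The other ciliary members moved little: Rab23, an antagonist of hedgehog signalling, was at 0.16 in KO (-0.06 to 0.37) and 0.08 in WT (-0.13 to 0.29), and Rab28 was at -0.25 in KO (-0.48 to -0.01; adjusted p = 0.0649, limma) and fell by 0.29 ± 0.10 in WT (adjusted p = 0.0369). Of the 3 members of lysosome-related organelles such as melanosomes, 3 fell in KO and 2 in WT. Rab32 read 7.85 and 7.91 in KO fetal liver, 7.80 and 8.103 in WT fetal liver, 9.44 and 9.39 in KO bone marrow, and 9.49 and 9.37 in WT bone marrow, and fell by 1.53 ± 0.12 in KO (adjusted p = 5.04e-06, limma) and fell by 1.48 ± 0.12 in WT (adjusted p = 5.88e-06). Its paralog Rab38 fell by 0.52 ± 0.15 in KO (adjusted p = 0.0159, limma) and was at -0.08 in WT (-0.44 to 0.27), while its second probe set gave 0.09 in KO and 0.31 in WT.

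The sequence before the transcription start is shown for 4 of the members with steep tissue differences, 2 of them higher in fetal liver and 2 higher in bone marrow, so that their base composition can be compared. Each gene is given 1 window, the one farthest upstream where it has several, and Rab34 has 2. The windows are the 250 bases upstream of the start in RefSeq, build GRCm38.p6, read 5′ to 3′ on the strand of the gene, with each CG dinucleotide in capitals: Rab17 at chr1:90967668-90967917 (minus strand), Rab34 at chr11:78188177-78188426 (plus strand), Rab31 at chr17:65772753-65773002 (minus strand) and Rab3d at chr9:21918184-21918433 (minus strand).
Rab17: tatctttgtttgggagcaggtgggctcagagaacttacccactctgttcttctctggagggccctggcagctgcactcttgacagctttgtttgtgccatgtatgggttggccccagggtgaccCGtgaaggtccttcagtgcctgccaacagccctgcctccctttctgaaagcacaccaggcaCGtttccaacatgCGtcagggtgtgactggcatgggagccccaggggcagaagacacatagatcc
Rab34: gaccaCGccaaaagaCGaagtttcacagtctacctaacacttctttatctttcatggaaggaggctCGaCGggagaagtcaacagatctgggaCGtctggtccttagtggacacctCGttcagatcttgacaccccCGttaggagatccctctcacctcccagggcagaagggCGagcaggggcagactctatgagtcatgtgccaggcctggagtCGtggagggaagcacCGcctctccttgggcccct
Rab31: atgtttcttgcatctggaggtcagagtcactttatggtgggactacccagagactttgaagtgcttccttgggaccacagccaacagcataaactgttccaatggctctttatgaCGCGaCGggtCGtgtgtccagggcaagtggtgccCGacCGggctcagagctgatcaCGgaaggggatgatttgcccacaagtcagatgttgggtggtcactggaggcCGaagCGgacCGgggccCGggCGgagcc
Rab3d: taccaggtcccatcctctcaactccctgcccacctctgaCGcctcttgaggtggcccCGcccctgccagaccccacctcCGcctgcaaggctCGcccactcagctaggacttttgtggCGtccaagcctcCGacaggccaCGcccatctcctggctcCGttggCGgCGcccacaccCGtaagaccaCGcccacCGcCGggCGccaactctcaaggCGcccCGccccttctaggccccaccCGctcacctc
The Rab17 window holds 3 CG dinucleotides and that of Rab3d holds 18, with 10 for Rab34 and 12 for Rab31. The median was 16 over the 48 members with a window and 13 over 14369 genes of the array. GC content was 56.8% for Rab17 and 69.2% for Rab3d, with medians of 60.6% over the members and 57.6% over all.

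Promoter windows were matched for 48 of 58 members, and not for Rab2a, Rab30, Rab7b, Rab18, Rab38, Rab26, Rab37, Rab36, Rab44 and Rab4a. On either strand, the GC box GGGCGG was present in 68.8% of member windows and 50.0% of all windows. The GATA motif AGATAA was present in 2.08% of member windows and 7.45% of all, and the ETS motif GAGGAA in 12.5% and 22.7%. The C/EBP motif TTGCNNAA was present in 6.25% and 8.09%, and the E-box CACGTG in 8.33% and 7.59%. In the windows printed, Rab34 has the GATA motif on the opposite strand, as ttatct, with its first base 206 bases before the start. Rab31 has a GC box 10 bases before the start, and Rab3d has 2 on the opposite strand, 194 and 31 bases before it. None of the 5 motifs is spelled in the Rab17 window. A match describes the letters, not a site in use, and the motifs were chosen by name with no overlap between their letters taken into account.

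The tissue differences in the 2 genotypes rest on different arrays, so they can be set side by side. Across the 49 members they correlated at r = 0.98, beside r = 0.97 across all 13136 genes, and the genes share their arrays. Both comparisons called 23 members, 5 higher (Rab13, Rab17, Rab34, Rab4a and Rab9) and 18 lower, all in the same direction. Rab10, Rab15, Rab1b, Rab22a, Rab28, Rab2b and Rab7 were called in WT only, and Rab11b, Rab36 (0.25 in KO, -0.06 in WT) and Rab38 in KO only. None of these differed between genotypes in the test of the difference itself, the interaction of genotype and tissue. The calls in WT only and the interaction carry the difference in Xist and Eif2s3y of the WT fetal liver pools, whose part was not tested. The largest gap was that of Rab37, at -1.25 in KO and -0.48 in WT.

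A small rise passed the test in WT only for Rab15 and Rab1b, with KO differences in the same direction. Their interactions were not called (adjusted p = 0.449 for Rab15 and 0.661 for Rab1b, limma). Rab15 read 6.19 and 6.19 in KO fetal liver, 6.69 and 6.37 in WT fetal liver, 6.01 and 6.09 in KO bone marrow, and 6.16 and 6.06 in WT bone marrow, and it was at 0.14 in KO (-0.12 to 0.41) and rose by 0.42 ± 0.12 in WT (adjusted p = 0.0117, limma). Rab1b, the paralog of Rab1a in early secretion, read 8.05 and 8.21 in KO fetal liver, 8.21 and 8.33 in WT fetal liver, 7.87 and 7.99 in KO bone marrow, and 8.04 and 7.75 in WT bone marrow, and it was at 0.20 in KO (-0.08 to 0.48) and rose by 0.38 ± 0.12 in WT (adjusted p = 0.0234, limma). Both rises were lost without WT bone marrow replicate 2 (adjusted p = 0.0741 for Rab15 and 0.186 for Rab1b, limma). That of Rab15 was lost also without WT fetal liver replicate 1 (adjusted p = 0.0811), and that of Rab1b without WT fetal liver replicate 2 (adjusted p = 0.113).

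The 16 members called in neither genotype included Rab26, of secretory vesicles, whose pools spread most. It read 5.34 and 4.76 in KO fetal liver, 5.61 and 4.89 in WT fetal liver, 4.798 and 4.97 in KO bone marrow, and 5.02 and 5.09 in WT bone marrow, on both sides of the filter level. Its intervals, -0.39 to 0.72 in KO and -0.36 to 0.75 in WT, were the widest of the 49. Rab35, of recycling and cytokinesis, was at 0.02 in KO (-0.20 to 0.25) and -0.13 in WT (-0.36 to 0.09). Rab18, of lipid droplets and the endoplasmic reticulum, was at -0.03 in KO (-0.22 to 0.17) and 0.15 in WT (-0.04 to 0.34). Rab25, the epithelial relative of Rab11a, was at 0.11 in KO (-0.15 to 0.38) and 0.17 in WT (-0.09 to 0.44).

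**Figure D2:**
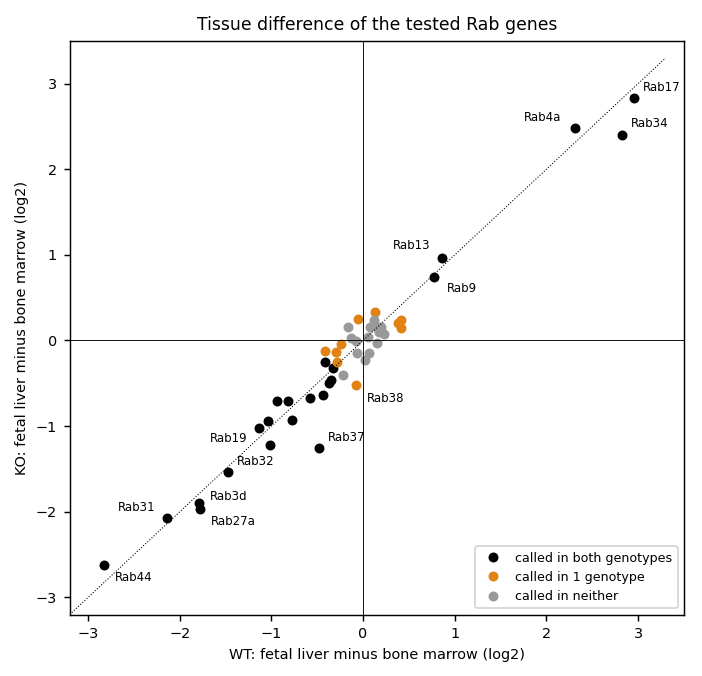
Fetal liver minus bone marrow (log2) of the 49 tested Rab genes in WT arrays (x axis) and KO arrays (y axis); 1 point per gene, coloured by the adjusted p under 0.05 in both, 1 or neither genotype, with a dotted line of equal differences. The points lie near the line, from Rab44 at -2.83 and -2.62 to Rab17 at 2.96 and 2.83, where all bone marrow arrays lie under the filter level, and Rab37 lies farthest from it, at -0.48 in WT and -1.25 in KO.

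**Figure D3:**
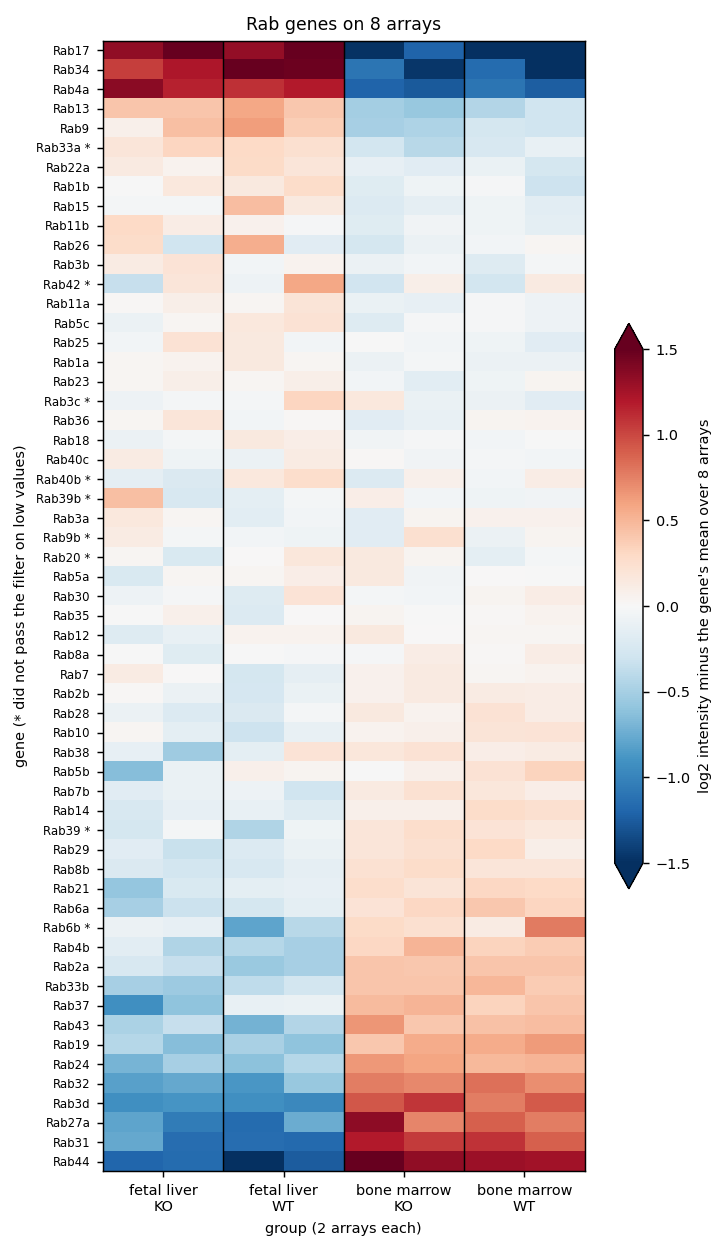
Log2 intensity of each of the 58 Rab genes (rows) minus the gene's mean over the 8 arrays (columns, 2 per group), ordered by the mean tissue difference; red is above and blue below the mean, and colours saturate at 1.5. The columns of the 2 tissues separate for genes at the top (Rab17, Rab34, Rab4a) and at the bottom (Rab44, Rab31, Rab27a, Rab3d), and KO and WT columns of 1 tissue look alike for most rows.

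Probe sets of 1 gene did not always give the same difference. Of the 49 tested genes, 28 have 2 or more probe sets at the filter level, and in 9 of them the WT differences lie on both sides of 0. For the 14 called members in KO with another such probe set, 21 of 28 other probe sets had the direction of the brightest one, and 7 had the other (in Rab11b, Rab14, Rab2a, Rab38 and Rab6a). In WT, 16 called members had 33 others, of which 27 had the same direction and 6 the other (in Rab14, Rab22a and Rab2a). Rab14, of the trans-Golgi network and endosomes, fell by 0.25 ± 0.09 in KO and fell by 0.41 ± 0.09 in WT on the brightest of its 7 probe sets. A pair of dimmer probe sets of Rab14 gave -2.19 and -1.40 in KO and -2.40 and -1.99 in WT. Rab12 and Rab5b, not called in either genotype, had second probe sets at -0.94 and -1.15 in KO, in that order of genes. In WT that of Rab5b gave -1.42. That of Rab12 lay under the filter level on both WT fetal liver arrays and was at least 1.76-fold lower there. Some of the other fetal liver arrays of these probe sets were also under the filter level. Which transcripts these probe sets read was not tested.

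**Figure D4:**
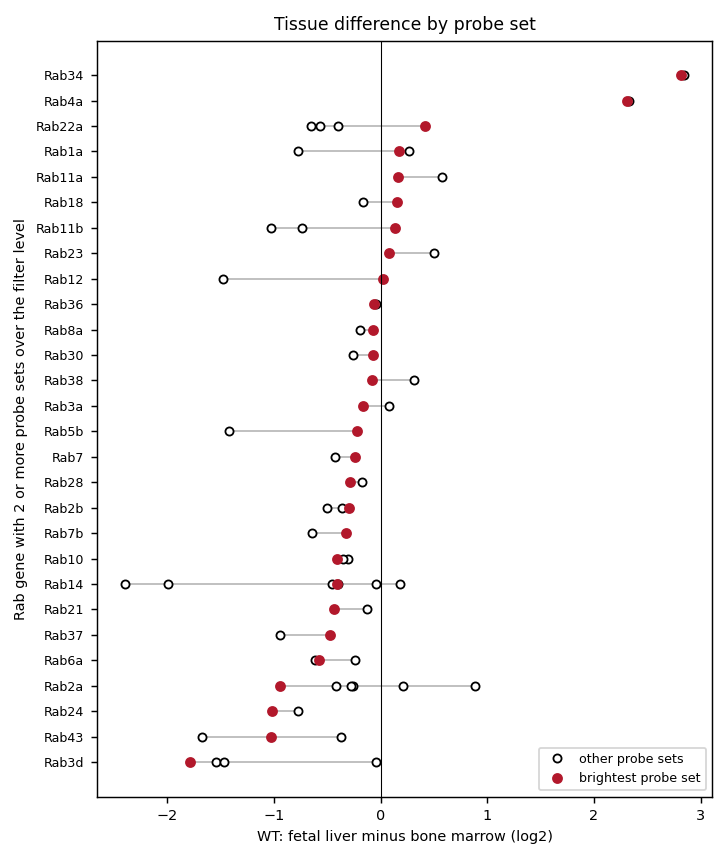
Fetal liver minus bone marrow in WT arrays (log2, x axis) for each probe set of the 28 Rab genes with 2 or more at the filter level (rows); filled red, the brightest probe set, and open, the others. The probe sets of Rab34 and Rab4a lie within 0.03 of each other, but the second of Rab34 is under the filter level on every bone marrow array. Those of Rab14 span 2.58 and of Rab2a 1.82.

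The next comparison asked whether loss of Col18a1 changed Rab genes in fetal liver. None of the 49 passed the test (limma, adjusted p under 0.05), against 0.32% of all genes. At an unadjusted p under 0.05 there were 7, 2 higher and 5 lower, against 22% of all genes, 7.89% higher and 14.1% lower. Xist and Eif2s3y differed between the same pools, and the part of sex in these differences was not tested. Differences ran from -0.66 to 0.38, with a median of -0.05 where that of all genes was -0.03. Without KO fetal liver replicate 2, Rab37, Rab5b and Rab21 lay further under WT. Replicate 1 read 4.91, 5.29 and 9.18, and replicate 2 read 5.22, 5.83 and 9.53, in that order of genes.

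Rab37, known from secretory granules of mast cells, had the largest fetal liver difference. It read 4.91 and 5.22 in KO fetal liver against 5.72 and 5.73 in WT fetal liver, and 6.30 and 6.34 in KO bone marrow against 6.16 and 6.24 in WT bone marrow. The KO fetal liver arrays were lowest of the 8, with 1 under the filter level. The difference was -0.66 ± 0.11 (95% interval -0.92 to -0.40; adjusted p = 0.0673, limma), and it missed the threshold. A dimmer Rab37 probe set read 4.84 and 4.87 in KO fetal liver against 4.74 and 5.07 in WT fetal liver, a difference of -0.04 between overlapping groups. The interaction of Rab37, its fetal liver difference minus its bone marrow difference, was -0.77 ± 0.16 (adjusted p = 0.128, limma), and -0.42 on the dimmer probe set. The dimmer probe set came to this through bone marrow, where KO minus WT was 0.38 on it and 0.12 on the brighter one.

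The other members lower in KO fetal liver without overlap did not pass the test either. Rab5b, of early endosomes, read 5.29 and 5.83 in KO against 6.0014 and 5.96 in WT (-0.42, 95% interval -0.79 to -0.06), and its dimmer probe set gave 0.13. Rab34 read 7.62 and 7.795 in KO against 8.08 and 8.06 in WT (-0.36, interval -0.71 to -0.01), with -0.42 on its second probe set. Rab15, an endosomal member, read 6.19 and 6.19 in KO against 6.69 and 6.37 in WT (-0.33, interval -0.60 to -0.07). Rab21 read 9.18 and 9.53 in KO against 9.61 and 9.63 in WT (-0.27, interval -0.54 to 0.0045). In Rab5b and Rab21 1 of the KO arrays lay close to the WT arrays. In all, 11 members (22.4%) had both KO arrays under both WT arrays, where 30.2% of all genes did.

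On the higher side, 8 members (16.3%) had KO arrays above the WT arrays in fetal liver, where 19.9% of all genes did. Rab44 read 6.25 and 6.28 in KO against 5.59 and 6.19 in WT (0.38, interval -0.02 to 0.78). Rab7 read 10.36 and 10.24 in KO against 9.97 and 10.098 in WT (0.27, interval 0.05 to 0.48). Rab2a read 10.02 and 9.91 in KO against 9.705 and 9.75 in WT (0.23, interval 0.04 to 0.43), while its other probe sets at the filter level gave -0.41 to 0.12. Rab3a was at 0.19 (interval -0.05 to 0.43) and Rab11b, of recycling endosomes, at 0.18 (interval -0.05 to 0.42). The adjusted p of these 5 genes lay between 0.16 and 0.33 (limma). The X-linked Rab9 had -0.24 in fetal liver (interval -0.55 to 0.08), where Xist differed, and -0.20 in bone marrow (interval -0.51 to 0.12), where it did not.

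**Figure D5:**
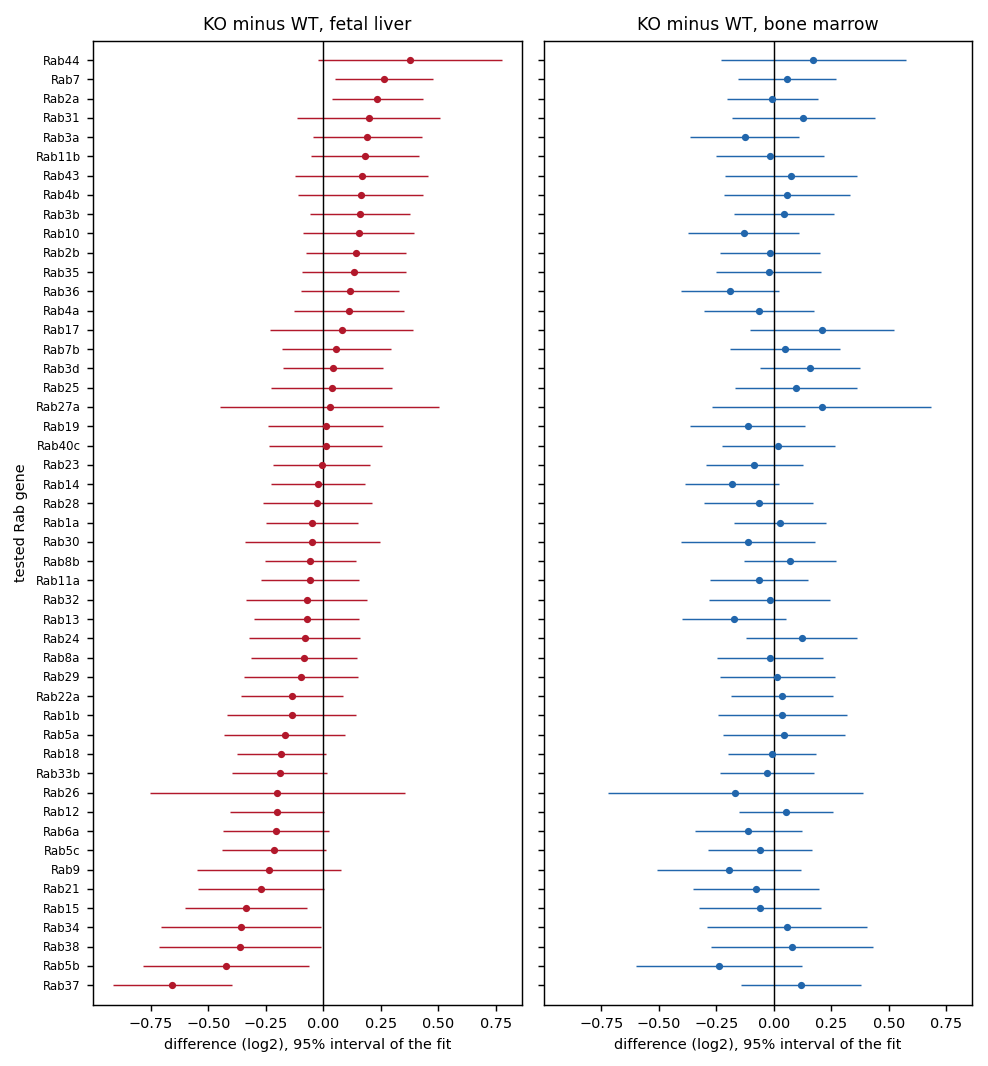
KO minus WT difference (log2, x axis) of the 49 tested Rab genes (rows, ordered by the fetal liver difference) in fetal liver (left) and bone marrow (right); points are fitted differences and bars are 95% intervals of the fit for 2 against 2 arrays. All bone marrow intervals include 0, and in fetal liver Rab37 at -0.66 lies farthest from it.

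In bone marrow, none of the 49 tested Rab genes, which leave out Rab27b, passed the test between KO and WT (limma), against 0.411% of all genes. None had an unadjusted p under 0.05, against 6.74% of all genes. The differences ran from -0.24 to 0.21, with a median of -0.01 where that of all genes was 0.01, and the smallest adjusted p was 0.804, for Rab36. The 95% intervals had a median half-width of 0.24 and together spanned -0.72 to 0.69. KO arrays lay above WT arrays for 9 members (18.4%; 23.8% of all genes) and under them for 12 (24.5%; 19.3% of all genes).

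Among the 9, Rab17 read 4.0002 and 4.28 in KO against 3.97 and 3.89 in WT (0.21, interval -0.10 to 0.52), all under the filter level. Rab44 read 9.001 and 8.77 in KO against 8.73 and 8.702 in WT (0.17, interval -0.23 to 0.57), and Rab3d read 9.21 and 9.35 in KO against 9.05 and 9.19 in WT (0.16, interval -0.06 to 0.38). Rab24 was at 0.12 (interval -0.12 to 0.36) and Rab37 at 0.12 (interval -0.14 to 0.38). Among the 12, Rab5b read 5.92 and 6.0026 in KO against 6.14 and 6.26 in WT (-0.24, interval -0.60 to 0.12), and Rab36, a Golgi member, read 6.17 and 6.24 in KO against 6.39 and 6.40 in WT (-0.19, interval -0.40 to 0.02). Rab14 was at -0.18 (interval -0.39 to 0.02) and Rab13 at -0.17 (interval -0.40 to 0.05). Beside these, 7 of 8 megakaryocyte markers fell in KO bone marrow, with summed intensities of 7024 to 7406 in KO against 14130 to 16900 in WT. None of the tested Rab genes, which leave out Rab27b, moved with them past the threshold.

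The interaction asked whether the genotype difference was unlike in the 2 tissues. It was called for none of 49 members (limma), against 0.0914% of all genes, and 2 had an unadjusted p under 0.05, Rab37 and Rab36 (4.08%, against 15.7% of all genes). Rab36 was at 0.12 in fetal liver and -0.19 in bone marrow, an interaction of 0.31 (interval 0.01 to 0.61; adjusted p = 0.31, limma). Averaged over both tissues, none of 49 was called, against 0.198% of all genes, and 4 had an unadjusted p under 0.05 (8.16%, against 14.1% of all genes). Members whose KO arrays lay on 1 side of the WT arrays in both tissues were Rab44 at 0.27 (interval -0.01 to 0.56) and Rab7 at 0.16 (0.01 to 0.31) on the higher side, and Rab5b at -0.33 (-0.59 to -0.08), Rab21 at -0.17 (-0.37 to 0.02) and Rab6a at -0.16 (-0.32 to 0.01) on the lower side. Rab5b was not called (adjusted p = 0.286, limma), and its average depended on 1 array, being -0.47 without KO fetal liver replicate 2. Without the same array the interaction of Rab37 was -0.93 (adjusted p = 0.0475, limma).

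Partners of the Rab cycle were called by tissue at shares from 55.9% to 76.7% of a list, beside 63.8% of all genes in KO and 65.9% in WT, so the counts are no result about the partners. Of 30 tested exchange factors, 6 rose and 12 fell in KO (60.0%) and 9 rose and 14 fell in WT (76.7%) in fetal liver against bone marrow. Dennd1c, of the DENN domain family, fell by 2.38 in KO and fell by 2.18 in WT, and Rin3, an exchange factor for Rab5 proteins, fell by 1.89 in KO and fell by 1.81 in WT. Of 34 GTPase-activating proteins, 9 rose and 10 fell in KO (55.9%), and 9 rose and 11 fell in WT (58.8%). Tbc1d10c, known from lymphocytes, read 5.43 and 4.93 in KO fetal liver, 5.48 and 5.26 in WT fetal liver, 9.08 and 8.88 in KO bone marrow, and 8.87 and 8.75 in WT bone marrow, and fell by 3.80 ± 0.17 in KO (adjusted p = 1.67e-07, limma) and fell by 3.44 ± 0.17 in WT (adjusted p = 2.96e-07). The tissues lay far apart for this gene.

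Among 44 effectors, 13 rose and 14 fell in KO and 12 rose and 15 fell in WT, 61.4% in each, beside the same 63.8% and 65.9% of all genes. Lrrk2, a kinase that phosphorylates Rab proteins and is recruited by Rab29 and Rab32, read 4.73 and 4.60 in KO fetal liver, 5.05 and 5.09 in WT fetal liver, 8.39 and 8.15 in KO bone marrow, and 7.86 and 7.97 in WT bone marrow. Both KO fetal liver arrays lay under the filter level, so the fall in KO is given as a bound, at least 9.64-fold lower in fetal liver (adjusted p = 1.86e-08, limma). In WT Lrrk2 fell by 2.84 ± 0.11 (adjusted p = 7.53e-08), and Rab32 and Rab29 also fell in both genotypes. Ehbp1, which links Rab8 and Rab10 vesicles to actin, rose by 2.17 ± 0.15 in KO and by 2.07 ± 0.15 in WT. Of 10 genes of prenylation and membrane extraction, 2 rose and 4 fell in KO (60.0%) and 2 rose and 5 fell in WT (70.0%), among them Zmpste24, a prenyl protein protease, which fell by 1.04 in KO and fell by 1.005 in WT.

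Between genotypes, none of the partners was called in fetal liver or in bone marrow (limma). Averaged over tissues, 1 of 44 effectors fell and none of the other partners was called. This was Sytl4, encoding granuphilin, a Rab27 effector on secretory granules, which lies on the X chromosome. It read 5.497 and 5.50 in KO fetal liver against 6.23 and 6.26 in WT fetal liver, and 5.47 and 5.37 in KO bone marrow against 6.47 and 5.98 in WT bone marrow. The KO arrays lay under the WT arrays in both tissues. The difference was -0.78 ± 0.10 on average (adjusted p = 0.037, limma), -0.75 in fetal liver (adjusted p = 0.0834) and -0.80 in bone marrow (adjusted p = 0.0781). Xist differed between the fetal liver pools and megakaryocyte markers between the bone marrow pools, as given above, and their part in this difference was not tested.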

How the data were processed

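Total RNA of 8 pools was read on Affymetrix mouse arrays. The authors made 1 intensity per probe set and array with RMA, per the submitters' processing notes, its version and settings being not given in the sources used here, and the deposited intensity is on a linear scale. Quantile steps such as RMA's make arrays alike, so a shift of most genes together would be removed, and differences of dim probe sets are compressed.

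Here log2 was taken. Of 45101 probe sets, the platform annotation gives 1 gene to 34958, several to 932 and none to 9211, and the brightest of the first kind stands for each gene. Genes at 5 or more on at least 2 arrays were tested (13136) with limma 3.58.1 in R 4.3.3, 1 mean per group over all 8 arrays, two-sided, with Benjamini-Hochberg adjustment over all genes tested. All adjusted p-values are from this fit, except those stated to be without 1 array. Where every array of the dimmer group lay under 5, a fold is given as "at least", the mean of the brighter group against 5, a step chosen after seeing the data. The script was tested on simulated data. Figures were drawn with matplotlib 3.10.9. With 2 arrays per group, precision is limited by their number. The members, role lists, partner lists and marker lists were chosen with earlier results of these data known. Named with values were members with the largest differences in each direction in a comparison (10 by tissue; 5 by genotype, if groups did not overlap), and up to 4 partners per list with the largest moderated t. Of these, fewer partners are named, and other members where their family, role or probe sets bear on those. Members with the highest and lowest means, also in the rule, are not listed, because levels of different probe sets cannot be compared. Same-numbered arrays did not deviate together (correlations of -0.06 to -0.0008 between the groups compared), so numbers were not taken as pairs.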

Additional observations from a re-analysis of the deposited data

How the results depend on the processing

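Each comparison was run under 19 or 20 alternatives, covering the filter, the choice of probe set, normalization, a pseudocount of 16, the variance model, array weights, the arrays in the fit, the threshold, the replicate number as a block, and each array left out. In bone marrow the count of Rab genes called between KO and WT was 0 in all 20. In fetal liver it was 1 (Rab37) with quantile normalization, with trend and robust variance, with log2(intensity + 16) and at an adjusted p under 0.1, and 0 to 3 with 1 array left out. The interaction and the average gave 0 to 1 with 1 array left out, and 0 otherwise. With the replicate block the counts were 0 in the 4 genotype tests, 25 in KO and 28 in WT for the tissues. Tissue counts with 1 array left out were 21 to 25 in KO and 23 to 30 in WT. Among the differences given in full, 199 of 199 settings in bone marrow and 190 of 200 in fetal liver kept sign and call, as did 388 of 399 for the tissues in KO and 384 of 399 in WT. The genotype differences in bone marrow and in fetal liver were picked from groups that did not overlap. Leaving 1 array out could therefore not turn their sign, and none of them was called in the main fit. In KO against WT fetal liver, Rab2a turned to -0.052 with the mean of probe sets and -0.41 with the most variable one, and Rab5b to 0.13 with the most variable one. In the KO tissue comparison, Rab22a turned to -0.20 and -0.43 and Rab2a to 0.99 under those choices, and with 1 array left out Rab5c ranged from -0.014 (without KO bone marrow replicate 1) to 0.17 and Rab26 from -0.12 (without KO fetal liver replicate 1) to 0.45. In WT, Rab22a turned to -0.30 and -0.40, Rab2a to 0.88, and Rab26 ranged from -0.17 (without WT fetal liver replicate 1) to 0.55. Single probe sets, chosen as an alternative after seeing the data, gave -0.57, -0.66 and -0.40 for Rab22a and 0.88 and 0.21 for Rab2a in WT, and 0.99 and 0.44 for Rab2a in KO. The causes were not tested. Signal near the filter level limits Rab17 and the second Rab34 probe set in bone marrow, and Rab37 and Lrrk2 in fetal liver.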
